A study of Mus musculus with 28 samples.

Results

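The genes described here are 8 genes of the naive and memory homing program of T cells, *Klf2*, *S1pr1*, *Ccr7*, *Tcf7*, *Lef1*, *Foxo1*, *Bach2* and *Satb1*. They were chosen by name, with earlier results of these data known. All 8 have a row among the 24089 genes of the RNA-seq table, which has 24 libraries. RNA came from CD4+ T cells, either WT or *Tgfbr1* KO. Naive CD4+ cells were purified from spleen and lymph nodes, stimulated through the TCR with anti-CD3 and anti-CD28, and cultured in medium alone (control) or with TGF-β, with IL-4 or with both cytokines (TGF-β + IL-4, the mixture that drives Th9 differentiation). There were 3 libraries in each of the 8 groups, numbered 1 to 3 in the labels, which do not say whether a number stands for 1 mouse or whether the libraries came from separate animals. Mice were adults of both sexes on a C57BL/6 background. Besides a *Cd4*-cre line, the study describes mice with floxed *Tgfbr1*, which encodes TGF-β receptor I, and a tamoxifen-inducible Cre (*Ert2*-cre). In that line KO mice had received tamoxifen and WT mice oil, so that the loss of *Tgfbr1* and the tamoxifen cannot be told apart. The titles of the DNase-seq samples name oil and tamoxifen, while those of the RNA-seq samples give only genotype, number and culture. The promoter that drives the inducible Cre and the culture time of the RNA-seq cells are not given in the sources used here. DNase-seq, which maps open chromatin, was done on 4 libraries, 1 each from a control and a TGF-β + IL-4 culture of either genotype.

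Naive and central memory T cells circulate through lymph nodes. KLF2, a zinc-finger transcription factor of quiescent T cells, drives *S1pr1*, the sphingosine 1-phosphate receptor through which T cells leave the node, and CCR7 is the chemokine receptor through which they enter it. FOXO1 is a forkhead factor that PI3K and AKT signaling keeps out of the nucleus, and among its known targets are *Klf2* and *Il7r*. TCF1 (*Tcf7*) and LEF1 are HMG-box factors that bind β-catenin and mark naive and memory cells. BACH2 is a repressor that restrains effector genes, and SATB1 is a chromatin organizer of thymocytes and T cells. TCR stimulation normally lowers much of this program.

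The table carries a conflict that bears on every value below. The headings of its columns and the order of its columns name different libraries in 20 of 24 columns. Read counts of 8 WT libraries, given in a supplementary table of the study, were set against each column, matching genes at 0. All 8 matched the column at their own place in library-number order, over 99.85% or more of 1991 to 3821 genes, whereas no other column matched over more than 85.79%. Only 2 of the 8 matched the column headed with their own name. The columns were therefore read by position, with the 12 WT columns first and the KO columns after them, and with every 4 columns taken as control, TGF-β alone, IL-4 alone and both cytokines. For 16 columns, the 4 of WT replicate 2 and all 12 of the KO cells, this reading rests on the order alone. With the columns read as headed, no member was called in any of the 16 comparisons.

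*Tgfbr1* itself was measured in every library. It lay between 3.02 and 3.31 RPKM in WT control cells, between 13.9 and 14.5 with TGF-β, between 3.48 and 3.94 with IL-4 and between 17.6 and 20.7 with both cytokines. RPKM are reads scaled to gene length and to library size, so levels of different genes can be compared per length. In KO cells *Tgfbr1* lay between 2.32 and 5.18 in all 4 cultures. KO and WT control cells differed by -0.21 ± 0.09 (SE) in log2(RPKM + 1) (limma, adjusted p = 0.164), and a value over the whole gene does not show a floxed exon, so it does not check the deletion. The relative depth of the libraries, read from the steps between low values, ran from 0.794 to 1.66, with WT TGF-β + IL-4 replicate 3 set to 1. The library KO TGF-β + IL-4 replicate 2 stood apart from its group. Its correlation with its group mates was 0.989, against 0.994 or more in the other 22 pairs of libraries within a group, and 7 of the 8 members were highest of the group in it, beside 49.3% of all genes whose mean RPKM reached 1. The library was also highest for 21 of 23 other genes of the naive and recirculating state and 11 of 14 FOXO inputs and targets. It was highest for 9 of 12 TCF and LEF partners and Wnt feedback genes and 9 of 17 activation and homing genes. Member results that rest on this library are given with and without it. *Cd3e*, *Cd3d*, *Cd3g*, *Cd4*, *Thy1*, *Lck* and *Cd5* summed to 1320 to 1740 RPKM in every library, B cell markers to 8.14 to 33.8, CD8 T cell markers to 14.3 to 36.3, NK cell markers to 1.03 to 7.15, myeloid markers to 0.59 to 18.7, dendritic cell markers to 1.6 to 3.49 and erythroid markers to 0 to 22. Among the markers with a row, only *Hbb-b1* was at 0 in every library. In such bulk samples, fewer cells of a type and less RNA per cell cannot be told apart.

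The mm9 sequence of the 250 bases upstream of the annotated start is shown for *Klf2*, *S1pr1* and *Foxo1*, which rose together in WT cells under TGF-β, and for *Satb1*, which fell. Each is written 5′ to 3′ on the strand of its gene. Capitals in *Klf2* mark CTANNNNTAG, a MEF2-type motif, those in *S1pr1* and *Satb1* the reverse complement of CAGAC, a SMAD-type motif, and those in *Foxo1* the reverse complement of CCAAT.
Klf2, chr8:74842682-74842931, plus strand: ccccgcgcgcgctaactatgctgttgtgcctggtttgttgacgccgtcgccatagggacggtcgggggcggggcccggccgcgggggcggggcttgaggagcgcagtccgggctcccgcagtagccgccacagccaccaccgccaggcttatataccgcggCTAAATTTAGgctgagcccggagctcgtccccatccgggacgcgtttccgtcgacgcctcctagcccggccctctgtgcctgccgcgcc
S1pr1, chr3:115417974-115418223, minus strand: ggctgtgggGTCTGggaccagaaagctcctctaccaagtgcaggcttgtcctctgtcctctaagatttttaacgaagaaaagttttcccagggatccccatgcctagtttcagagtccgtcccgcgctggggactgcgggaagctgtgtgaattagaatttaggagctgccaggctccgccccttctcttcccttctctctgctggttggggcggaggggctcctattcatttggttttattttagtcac
Foxo1, chr3:52072009-52072258, plus strand: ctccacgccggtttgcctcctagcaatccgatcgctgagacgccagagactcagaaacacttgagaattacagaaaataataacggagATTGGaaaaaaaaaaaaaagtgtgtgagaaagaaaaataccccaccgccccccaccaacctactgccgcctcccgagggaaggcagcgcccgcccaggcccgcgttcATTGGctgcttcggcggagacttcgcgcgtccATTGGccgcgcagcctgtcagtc
Satb1, chr17:51972616-51972865, minus strand: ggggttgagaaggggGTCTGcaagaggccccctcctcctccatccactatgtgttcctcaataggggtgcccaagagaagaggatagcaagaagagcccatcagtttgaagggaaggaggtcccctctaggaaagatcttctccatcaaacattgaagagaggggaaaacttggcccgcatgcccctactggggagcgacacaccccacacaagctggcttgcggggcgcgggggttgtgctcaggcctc

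Motifs were searched on both strands in these windows and in the windows of all 22362 protein-coding genes with a complete one. CAGAC was found in 3 members (*S1pr1*, *Lef1* and *Satb1*) and in 40.9% of all windows. CCACCC, a KLF-type motif, was found in 2 (*Ccr7* and *Lef1*) and in 29.0%, CTTTGA, the TCF/LEF core, in 1 (*Tcf7*) and in 13.4%, and CCAAT in 1 (*Foxo1*, at 3 places) and in 35.0%. GTAAACA, the FOXO motif, was in none of the 8 and in 2.74% of all windows, and TGAGTCA, the AP-1 motif, was in none and in 3.85%. CTANNNNTAG and CCAAT were searched after the *Klf2* and *Foxo1* sequences had been read, and the first was found in *Klf2* alone, 89 bases before the start, and in 3.14% of all windows. The GC content was 70.8% for *Klf2*, 53.2% for *S1pr1*, 56.0% for *Foxo1* and 58.0% for *Satb1*, with a median of 54.0% over all windows. The matches are of letters only, and whether a factor bound there was not measured.

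The 8 genes did not move as a block, and the changes with TGF-β alone were called in WT cells and not in KO cells. In WT cells TGF-β raised *Klf2*, *S1pr1* and *Foxo1* and lowered *Ccr7* and *Satb1*, IL-4 lowered *Ccr7* and raised *Satb1*, and in KO cells none of the 8 was called with TGF-β (limma, and none had an unadjusted p under 0.05). *Ccr7* was the most abundant, between 324 and 814 RPKM over all libraries, and *Tcf7* (40.0 to 78.4) and *Lef1* (32.5 to 58.0) came next. *Satb1* (4.82 to 29.5) and *Bach2* (10.3 to 20.1) lay below them, and *Klf2* (0.954 to 11.8), *S1pr1* (1.42 to 15.8) and *Foxo1* (2.82 to 9.66) were lowest.

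**Figure D1:**
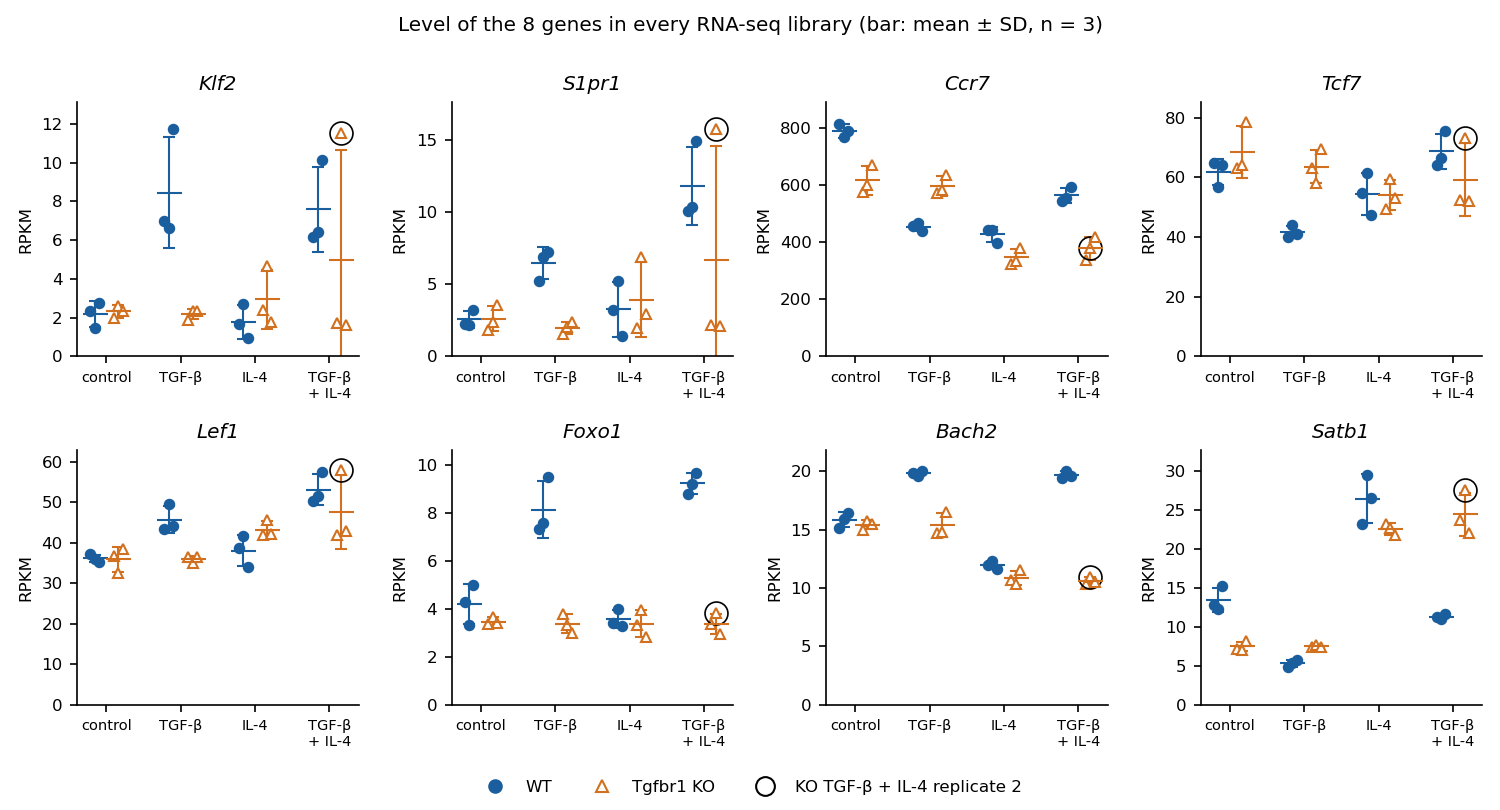
RPKM (linear axis from 0) of each of the 8 genes by culture, in WT (blue circles) and *Tgfbr1* KO libraries (open orange triangles), with the mean ± SD of 3 libraries and bars cut at 0. The circled triangle is KO TGF-β + IL-4 replicate 2, which lies far above its group mates for *Klf2* (11.5 against 1.72 and 1.63) and *S1pr1* (15.8 against 2.15 and 2.14).

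A gene was called when its limma adjusted p was under 0.01 and its fold change over 1.5, on the log2(RPKM + 1) scale, which understates the change of low genes. Beside each count of members stands the share of all genes tested that was called in that comparison. The members were chosen with earlier results of these data known, so this share is no test of enrichment. With TGF-β against control, 5 of 8 members were called in WT cells (5.71% of all genes) and 0 in KO cells (0.0105%, 1 gene of 9563, with 246 genes at an unadjusted p under 0.05). With IL-4 against control, 2 were called in WT (1.29%) and 2 in KO cells (2.51%). With both cytokines against control, 3 were called in WT (9.27%) and 2 in KO cells (1.92%). The comparisons with control share the control libraries of their genotype. Within WT cells, TGF-β + IL-4 differed from TGF-β alone in 3 members (3.03%) and from IL-4 alone in 5 (9.28%), and the interaction of TGF-β with IL-4 was called for 2 (1.77%). The median difference over the 8 members was 0.32 with TGF-β, -0.18 with IL-4 and 0.42 with both cytokines in WT cells, against 0.01, 0.01 and 0.03 over all genes tested. Without WT control replicate 1 the count with TGF-β was 2 in place of 5, because the adjusted p of *Klf2* became 0.0107, that of *S1pr1* 0.0103 and that of *Foxo1* 0.0213, and that with IL-4 was 1 in place of 2 (*Satb1*, 0.0141). The p-values measure only the spread between these libraries, which may be technical.

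Between genotypes, KO and WT differed in 1 member under control (2.46% of all genes), 4 under TGF-β (9.68%), 0 under IL-4 (2.99%, with 3 members at an unadjusted p under 0.05 by limma) and 3 with both cytokines (8.44%). The test of whether a culture's effect itself differed between the genotypes called 5 members for TGF-β (4.71%), 0 for IL-4 (0.0414%, with 794 genes, 1 member among them, at an unadjusted p under 0.05) and 3 for TGF-β + IL-4 (4.18%). Without KO TGF-β + IL-4 replicate 2, *Klf2* and *S1pr1* were called as well, which made 5 members in the KO against WT comparison with both cytokines and 5 for the effect of both cytokines. Without WT control replicate 1 or without WT TGF-β replicate 3, the effect of TGF-β was called different for 3 members in place of 5, with *S1pr1* at an adjusted p of 0.0134 and 0.0125 and *Foxo1* at 0.014 and 0.0143. Without any of 8 other libraries it was called for 4. *Foxo1* was lost without any 1 KO control library or without KO TGF-β replicate 2 or 3, at adjusted p of 0.0123 to 0.017. *S1pr1* was lost without WT control replicate 2, WT TGF-β replicate 2 or KO TGF-β replicate 1, at adjusted p of 0.0113 to 0.01155 (limma).

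**Figure D2:**
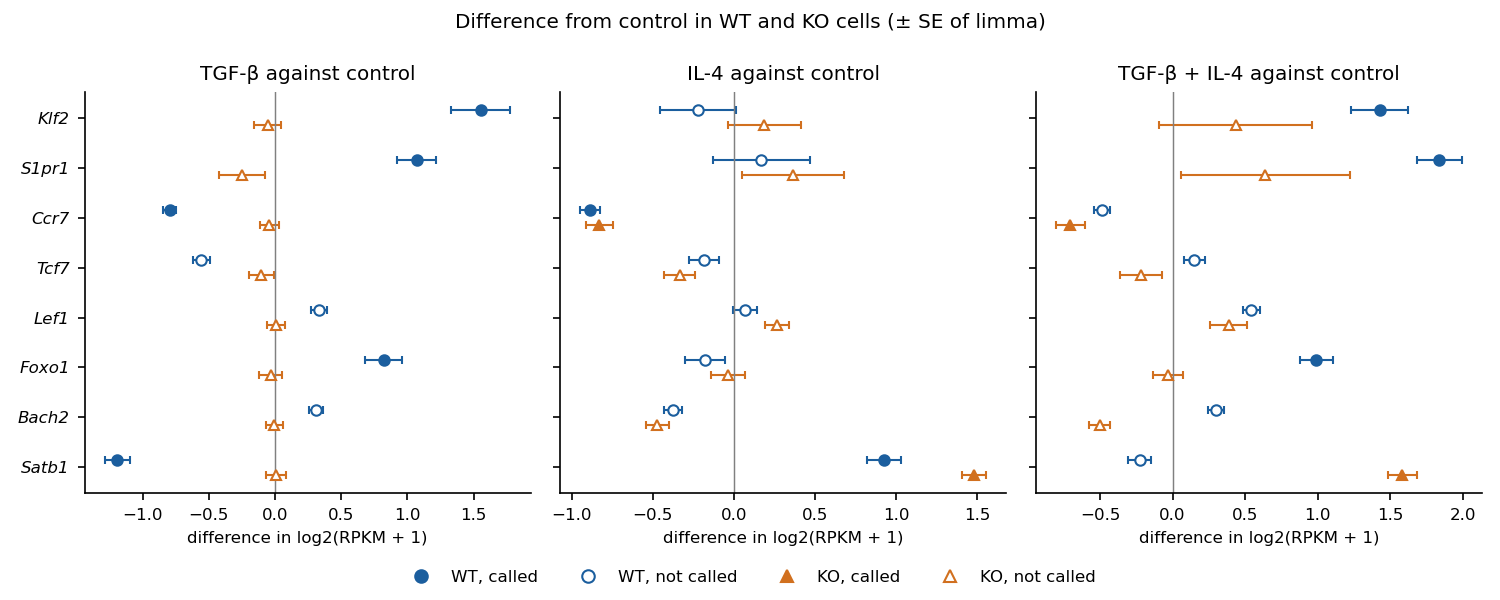
Difference from control in log2(RPKM + 1) (x axis, ± SE of limma) for each gene with TGF-β, with IL-4 or with both cytokines, in WT (circles) and KO cells (triangles), where filled symbols were called. Under TGF-β the KO values sit between -0.25 and 0.01 while the WT values run from -1.19 to 1.55, and under IL-4 both genotypes show *Ccr7* lower and *Satb1* higher.

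*Klf2* and *S1pr1*, the egress factor and the egress receptor, were raised by TGF-β in WT cells. *Klf2* was at 2.36, 1.45 and 2.74 RPKM in the 3 WT control libraries and at 7.0, 6.63 and 11.8 with TGF-β. Under IL-4 it was at 1.69, 2.68 and 0.954, and with both cytokines at 6.18, 6.44 and 10.1. Every library with TGF-β thus lay above every WT library without it. The difference from control was 1.55 ± 0.22 (SE) on the log2 scale with TGF-β (adjusted p = 0.00211, 3.88-fold between the means) and 1.43 ± 0.19 with both (adjusted p = 0.000415), whereas with IL-4 it was -0.22 ± 0.23 (adjusted p = 0.676). Without a filter on low genes the adjusted p with TGF-β was 0.0104. Adding IL-4 to TGF-β gave a difference of -0.13 ± 0.21 (adjusted p = 0.705).

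*S1pr1* was at 2.24, 2.21 and 3.26 RPKM in WT control cells and at 5.25, 6.93 and 7.27 with TGF-β. It was at 3.20, 5.21 and 1.42 with IL-4 and at 10.1, 10.4 and 14.9 with both cytokines, the highest of the WT groups, with no library of any other WT group reaching it. The difference from control was 1.07 ± 0.14 with TGF-β (adjusted p = 0.00153) and 1.84 ± 0.16 with both (adjusted p = 2.79e-05, 4.6-fold). The level with both lay 0.77 ± 0.15 above that with TGF-β alone (adjusted p = 0.00735), a call that was lost without any 1 of 5 of the 6 libraries in the fit, at adjusted p of 0.012 to 0.0277. With all 24 libraries in 1 fit the adjusted p of *S1pr1* was 0.12 for TGF-β against control and 0.268 for both cytokines against TGF-β, so that neither was called. The interaction of the cytokines was 0.60 ± 0.38 and was not called (adjusted p = 0.348).

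In KO cells *Klf2* was at 1.98, 2.63 and 2.36 RPKM under control and at 1.88, 2.36 and 2.33 with TGF-β, and *S1pr1* at 1.85, 2.40 and 3.55 and at 1.54, 2.07 and 2.38. The groups overlapped for both genes. The effect of TGF-β in KO cells differed from that in WT cells by -1.61 ± 0.27 for *Klf2* (adjusted p = 0.00152) and by -1.32 ± 0.25 for *S1pr1* (adjusted p = 0.0038). With all 24 libraries in 1 fit neither was called, at adjusted p of 0.0943 and 0.267, and the *S1pr1* difference between KO and WT cells under TGF-β was at 0.0298. With IL-4, KO replicate 2 gave the highest values, 4.66 for *Klf2* against 2.39 and 1.79 in the others, and 6.88 for *S1pr1* against 1.99 and 2.97. With both cytokines replicate 2 gave 11.5 for *Klf2* against 1.72 and 1.63, and 15.8 for *S1pr1* against 2.15 and 2.14. Both values were above the highest WT TGF-β + IL-4 library, at 10.1 and 14.9, and the SE of the KO effect of both cytokines was 0.53 for *Klf2* and 0.58 for *S1pr1*. Under TGF-β + IL-4 the difference between KO and WT was -0.91 ± 0.55 for *Klf2* (adjusted p = 0.240) and -1.20 ± 0.59 for *S1pr1* (adjusted p = 0.154). Without that library the differences were -1.65 ± 0.17 (adjusted p = 6.41e-05) and -2.01 ± 0.15 (adjusted p = 6.85e-06). *Tgfbr1* was at 5.18 RPKM in it, against 3.45 and 3.35 in its group mates, and *Il7r*, the IL-7 receptor, at 17.7 against 3.19 and 3.23. Their part in the result was not tested.

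*Foxo1*, which encodes a factor upstream of *Klf2*, rose with TGF-β in WT cells. It was at 4.28, 3.30 and 4.99 RPKM under control, at 7.32, 7.56 and 9.50 with TGF-β, at 3.41, 3.98 and 3.28 with IL-4 and at 8.79, 9.22 and 9.66 with both cytokines. No library with TGF-β overlapped one without it. The difference from control was 0.82 ± 0.14 with TGF-β (adjusted p = 0.00459, 1.94-fold) and 0.99 ± 0.11 with both (adjusted p = 0.000154, 2.20-fold). The call with TGF-β was lost without replicate 1 of WT control or without replicate 1 or 3 of WT TGF-β, at adjusted p of 0.0213, 0.0135 and 0.0167, and without a filter on low genes, at 0.0171. In the 12 KO libraries *Foxo1* stayed between 2.82 and 3.95, and the mean was 3.46 ± 0.18 (SD, n = 3) under control and 3.37 ± 0.43 with both cytokines. KO cells were lower than WT cells by a log2 difference of -1.06 ± 0.11 with TGF-β (adjusted p = 0.000134) and of -1.23 ± 0.10 with both cytokines (adjusted p = 8.01e-05), and not called different under control (-0.21 ± 0.12, adjusted p = 0.282) or IL-4 (-0.07 ± 0.11, adjusted p = 0.737). KO TGF-β + IL-4 replicate 2, at 3.80, did not stand out for *Foxo1*. Without it the difference with both cytokines was -1.30 ± 0.09 (adjusted p = 5.34e-06).

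*Bach2* had tight groups, and its differences from control with single cytokines were small. It was at 15.2, 15.9 and 16.4 RPKM in WT control cells, at 19.8, 19.6 and 20.1 with TGF-β, at 11.9, 12.3 and 11.6 with IL-4 and at 19.4, 20.1 and 19.6 with both cytokines. The control and IL-4 groups overlapped neither each other nor a group with TGF-β. With TGF-β the log2 difference was 0.31 ± 0.05 (adjusted p = 0.0045) and with IL-4 -0.38 ± 0.06 (adjusted p = 0.00812), both under the 1.5-fold limit and so not called. The level with both cytokines was above IL-4 alone by 0.68 ± 0.05 (adjusted p = 1.74e-05, 1.65-fold) and differed from TGF-β alone by -0.01 ± 0.05 (adjusted p = 0.926). In KO cells *Bach2* was at 15, 15.7 and 15.5 without cytokine and at 14.7, 14.8 and 16.5 with TGF-β. It was at 10.7, 10.3 and 11.5 with IL-4 and at 10.3, 10.9 and 10.5 with both cytokines, where no library reached the KO control or TGF-β groups. The effect of both cytokines differed between the genotypes by -0.80 ± 0.08 (adjusted p = 2.72e-05), from a WT difference of 0.30 ± 0.06 and a KO difference of -0.50 ± 0.07, and was -0.82 ± 0.08 without KO TGF-β + IL-4 replicate 2 (adjusted p = 2.74e-05).

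*Satb1* was lowered by TGF-β and raised by IL-4. It was at 12.9, 12.3 and 15.2 RPKM in WT control cells, at 4.82, 5.38 and 5.74 with TGF-β, at 23.2, 29.5 and 26.52 with IL-4 and at 11.2, 11.0 and 11.7 with both cytokines. The 4 groups did not overlap. TGF-β lowered it by a log2 difference of -1.19 ± 0.09 (adjusted p = 8.84e-05) and IL-4 raised it by 0.92 ± 0.10 (adjusted p = 0.00157). The difference with both was -0.23 ± 0.08 from control (adjusted p = 0.0488) and was not called. The interaction of the cytokines was 0.04 ± 0.13 (adjusted p = 0.878), so that a departure from the sum of the single effects was not detected. In KO cells *Satb1* was at 7.17, 7.07 and 8.16 without cytokine, 7.41, 7.64 and 7.44 with TGF-β, 23.2, 22.7 and 21.8 with IL-4 and 23.7, 27.5 and 22 with both cytokines. It had 2 levels, at most 8.16 without IL-4 and at least 21.8 with it. KO control cells were lower than WT control cells by a log2 difference of -0.77 ± 0.09 (adjusted p = 0.00165), the only member called between the genotypes under control. Without a filter on low genes its adjusted p was 0.0103, and that of the IL-4 effect in WT cells was 0.0144. With both cytokines KO cells were higher than WT cells by 1.04 ± 0.09 (adjusted p = 0.000114), and the effect of both cytokines differed by 1.81 ± 0.13 (adjusted p = 2.86e-06). Without KO TGF-β + IL-4 replicate 2 this was 1.72 ± 0.12 (adjusted p = 2.14e-06).

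Markers of CD8 T cells moved with *Satb1*. *Cd8a* and *Cd8b1* summed to 24.8 to 26.9 RPKM in WT control cells, 16.6 to 17.3 under TGF-β, 29.9 to 36.3 under IL-4 and 25.3 to 26.7 with both cytokines. In KO cells the sum was 14.8 to 16.7 under control, 14.3 to 15.2 under TGF-β, 26.3 to 27.2 under IL-4 and 26.3 to 28.3 with both cytokines. The 3 NK cell markers *Ncr1*, *Klrb1c* and *Klre1* summed to 3.28 to 3.38 in WT control cells, 1.03 to 1.34 under TGF-β, 5.23 to 7.15 under IL-4 and 2.42 to 3.24 with both cytokines. In KO cells they summed to 2.30 to 3.30, 2.04 to 3.07, 3.07 to 5.15 and 4.06 to 6.85 in the same order. Myeloid markers, of which *Lyz2* was the most abundant, summed to 3.65 to 6.79 in WT control cells, 7.23 to 18.7 under TGF-β, 2.69 to 4.46 under IL-4 and 8.10 to 17.4 with both cytokines. In KO cells they summed to 0.590 to 2.64, 1.66 to 10.7, 1.71 to 5.70 and 3.34 to 7.16 in the same order. B cell markers summed to 14.8 to 23.3 in WT control cells, 11.2 to 13.4 under TGF-β, 12.4 to 24.3 under IL-4 and 15.7 to 33.8 with both cytokines. In KO cells they summed to 9.27 to 10.5, 8.14 to 10.6, 12.2 to 13.6 and 15.1 to 26.3. Their part in the results on the members was not tested.

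*Ccr7* was lowered by either cytokine, and with both its level lay between control and the single cytokines. It was at 814, 766 and 788 RPKM in WT control cells, 457, 468 and 438 with TGF-β, 441, 444 and 396 with IL-4 and 543, 555 and 593 with both cytokines. The groups with 1 cytokine overlapped each other, and they overlapped neither control nor TGF-β + IL-4. The log2 difference from control was -0.80 ± 0.05 with TGF-β (adjusted p = 2.1e-05) and -0.89 ± 0.06 with IL-4 (adjusted p = 0.00014). With both cytokines it was -0.49 ± 0.05 (adjusted p = 0.000123), under the 1.5-fold limit. The interaction of the cytokines was 1.20 ± 0.08 (adjusted p = 1.38e-05), the largest of the members. In KO cells *Ccr7* was at 577, 599 and 671 without cytokine and 572, 583 and 636 with TGF-β, all below the WT control libraries (log2 difference under control of -0.36 ± 0.07, adjusted p = 0.0146, not called). It was at 324, 335 and 380 with IL-4 and 337, 379 and 419 with both cytokines, with a difference from KO control of -0.83 ± 0.08 (adjusted p = 0.000284) and -0.70 ± 0.10 (adjusted p = 0.0053). The last call was lost without any 1 of the 6 libraries other than replicate 2 of KO TGF-β + IL-4, at adjusted p of 0.0115 to 0.0281.

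*Tcf7* and *Lef1*, the HMG-box pair, did not follow each other. *Tcf7* was at 64.6, 56.7 and 64.0 RPKM in WT control cells, 40.0, 44.1 and 40.9 with TGF-β, 54.7, 61.4 and 47.4 with IL-4 and 64.2, 66.4 and 75.4 with both cytokines. Only the TGF-β group stood clear of the others. Its log2 difference from control was -0.56 ± 0.07 (adjusted p = 0.000727), just under the 1.5-fold limit. The level with both cytokines was above TGF-β alone by 0.71 ± 0.07 (adjusted p = 0.00016, 1.65-fold), and the interaction of the cytokines was 0.89 ± 0.13 (adjusted p = 0.00141). In KO cells *Tcf7* was at 63.1, 64.0 and 78.4 without cytokine, 63.1, 58.1 and 69.3 with TGF-β, 49.4, 59.3 and 53.2 with IL-4 and 52.3, 73.2 and 52.2 with both cytokines. Under TGF-β KO cells were higher than WT cells by 0.60 ± 0.07 (adjusted p = 0.000292, 1.53-fold), a difference that went under the 1.5-fold limit without WT TGF-β replicate 1 (0.57), WT TGF-β replicate 3 (0.58) or KO TGF-β replicate 3 (0.53).

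*Lef1* was at 37.1, 36.0 and 35.2 RPKM in WT control cells, 43.4, 49.6 and 44.1 with TGF-β, 38.7, 41.6 and 33.9 with IL-4 and 50.4, 51.6 and 57.4 with both cytokines. It was highest with both cytokines, and the IL-4 group overlapped control. *Lef1* was called in none of the 16 comparisons. Its widest WT difference was 0.54 ± 0.06 with both cytokines against control (adjusted p = 0.000111, 1.47-fold), and with TGF-β it was 0.33 ± 0.06 (adjusted p = 0.00684). In KO cells it was at 36.7, 32.6 and 38.4 without cytokine, 36.6, 35.1 and 36.4 with TGF-β, 41.9, 45.8 and 42.2 with IL-4 and 41.9, 58.0 and 42.9 with both cytokines, where replicate 2 was again the highest. The KO IL-4 libraries all lay above KO control, with a log2 difference of 0.27 ± 0.07 that was not called (adjusted p = 0.0682).

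**Figure D3:**
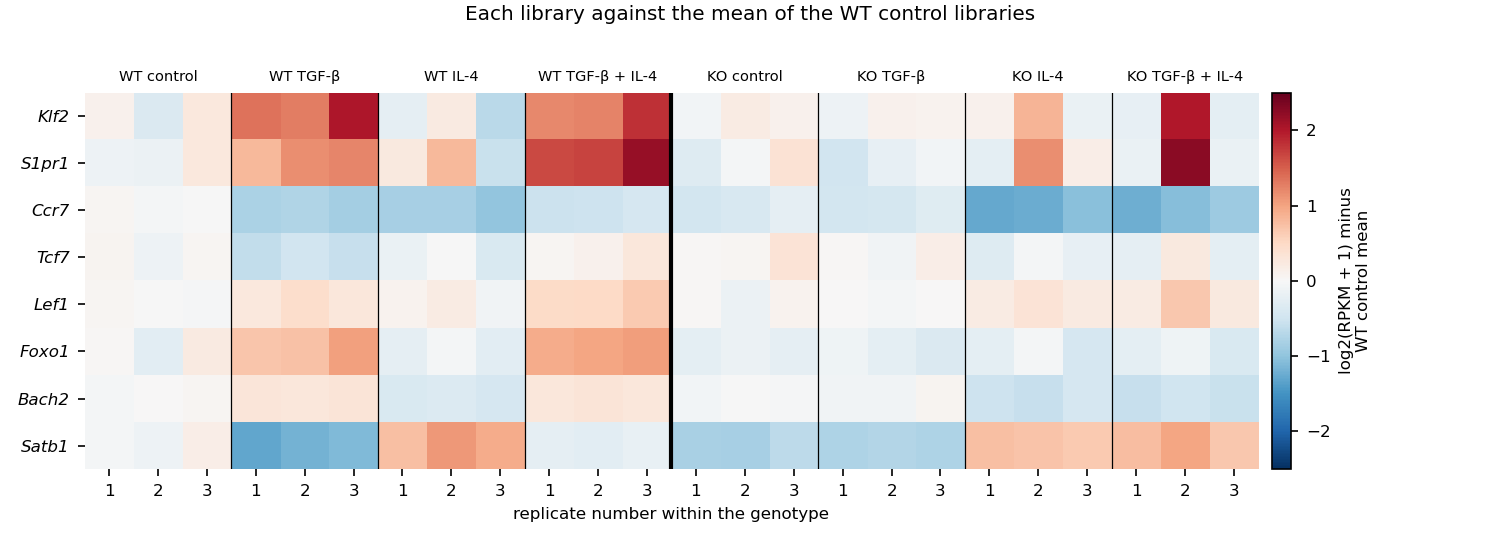
log2(RPKM + 1) of each gene in each of the 24 libraries minus the mean of the 3 WT control libraries (color, red for higher and blue for lower), with columns by genotype, culture and replicate number. *Klf2*, *S1pr1* and *Foxo1* are red in the 6 WT libraries with TGF-β. *Satb1* is blue in WT cells with TGF-β alone and red with IL-4 alone. In KO cells *Satb1* is blue under control and TGF-β, and red under IL-4 and TGF-β + IL-4. Alone among the KO TGF-β + IL-4 libraries, replicate 2 is red for *Klf2* and *S1pr1*.

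Over the 24 libraries the log2(RPKM + 1) values of some members went together. The correlations are descriptions, since 3 libraries share each genotype and culture. Pearson's r was 0.907 between *Klf2* and *S1pr1* (0.887 without KO TGF-β + IL-4 replicate 2), 0.892 between *S1pr1* and *Lef1* (0.866), 0.808 between *Klf2* and *Foxo1* (0.925) and 0.770 between *Foxo1* and *Bach2* (0.778). *Bach2* and *Satb1* had the lowest, -0.815 (-0.801), and *Tcf7* and *Lef1* had 0.0743 (-0.0543). Among all genes whose mean RPKM reached 1, those most like *Klf2* were *Card6* (r = 0.945), *Rasa3* (0.945) and *Cox7a2l* (0.925), and those most like *S1pr1* were *Tcp11l2* (0.963), *Tsc22d3* (0.958) and *Tnfrsf26* (0.950). Those most like *Foxo1* were *Wasf2* (0.976), *St8sia6* (0.970) and *1600014C10Rik* (0.969), and those most like *Bach2* were *Ubash3b* (0.986), *Bdh2* (0.975) and *Pdcd1* (0.955), which encodes the inhibitory receptor PD-1. *Satb1* was most like *Cd8b1* (0.970), *Auh* (0.949) and *Gzma* (0.947), of which *Cd8b1* is one of the CD8 markers above and *Gzma* encodes granzyme A. Without KO TGF-β + IL-4 replicate 2 *Pdcd1* ranked 5 for *Bach2*, and *Auh* and *Gzma* ranked 5 and 6 for *Satb1*. *Lef1* was most like *Fam189b* (0.958), *Cnp* (0.939) and *Tsc22d3* (0.919), of which *Tsc22d3* ranked 17 without that library (0.901), and *Ccr7* most like *Pla2g4f* (0.899) and *Psme2* (0.885). *Tcf7* had the loosest neighbors, *Zfp281* (0.843), *Itga4* (0.837) and *Cd3d* (0.815). Without that library *Cd3d* ranked 1 (0.888), *Zfp281* 3 (0.830) and *Itga4* 5 (0.823).

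This list and the 3 below were also chosen with earlier results of these data known, so their counts are descriptions. Of 25 other genes of the naive and recirculating state, 23 passed the minimum level. With both cytokines against control in WT cells 6 of these rose and none fell, beside 9.27% of all genes called in either direction, with a median log2 difference of 0.34, against 0.03 over all genes. *Igfbp4*, a secreted binder of insulin-like growth factors, went from 43.3 ± 7.14 (SD, n = 3) to 188 ± 18.9 RPKM (2.10 ± 0.12 on the log2 scale, adjusted p = 2.01e-06). *Il6ra*, the IL-6 receptor α chain, went from 6.87 ± 0.16 to 19.1 ± 0.79 (1.35 ± 0.06, adjusted p = 5.77e-07), and *Tdrp* from 2.96 ± 0.33 to 7.97 ± 0.85 (1.18 ± 0.09, adjusted p = 2.03e-05). *Il7r* was at 2.24, 1.93 and 1.96 under control and at 2.80, 2.90 and 5.08 with both cytokines, and was not called (0.56 ± 0.16, adjusted p = 0.0219). With TGF-β alone 3 of the 23 rose and 1 fell (5.71% of all genes called).

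Of 22 genes of activation, tissue homing and retention, 17 passed the minimum level. In WT cells 7 of these rose and none fell with both cytokines (9.27% of all genes called), with a median of 0.40. *Itgae* (CD103, an integrin chain that holds T cells in epithelia) was at 0.363, 0.206 and 0.196 RPKM under control and 7.0, 8.69 and 8.76 with both cytokines (2.86 ± 0.10, adjusted p = 1.48e-07). *Ccr8* and *Ccr4*, chemokine receptors of skin-homing and Th2 cells, went from 54.2 ± 3.65 to 366 ± 15.8 (2.73 ± 0.06, adjusted p = 6.65e-09) and from 11.2 ± 0.92 to 40.3 ± 1.59 (1.76 ± 0.07, adjusted p = 2.51e-07). With TGF-β alone 6 of 17 rose and 1 fell (5.71% of all genes called).

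Of 16 inputs and targets of FOXO factors, 14 passed the minimum level, and 5 rose and none fell with both cytokines in WT cells (9.27% of all genes called), with a median of 0.57. *Il7r* stands on this list as well as on the naive one. *Pik3ip1*, an inhibitor of PI3K, was at 1.15, 1.26 and 1.46 RPKM under control and 4.77, 4.06 and 5.82 with both cytokines (1.35 ± 0.11, adjusted p = 2.63e-05). *Trib2*, a pseudokinase, went from 6.58 ± 0.34 to 17.4 ± 1.5 (1.27 ± 0.08, adjusted p = 3.52e-06), and *Bcl6*, a transcriptional repressor, from 1.73 ± 0.09 to 4.14 ± 0.21 (0.91 ± 0.07, adjusted p = 2.16e-05). Of 18 partners of TCF and LEF and Wnt feedback genes, 12 passed, and 3 rose and 1 fell in the same comparison (9.27% of all genes called), with a median of 0.23. *Bcl11b*, a T cell identity factor, went from 10.7 ± 0.48 to 20.2 ± 0.80 (0.86 ± 0.06, adjusted p = 9.71e-06). *Ctnnbip1*, an inhibitor of β-catenin, rose by 0.68 ± 0.09 (adjusted p = 0.00035) and *Gata3*, the Th2 factor, by 0.62 ± 0.06 (adjusted p = 7.87e-05). *Id3*, an inhibitor of E proteins, fell from 59.1 ± 2.79 to 20.8 ± 1.16 (-1.47 ± 0.06, adjusted p = 3.82e-07).

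Open chromatin at the starts of the members was read from the 4 lists of DNase hypersensitive sites (DHSs), which hold 44298 DHSs in WT control cells and 33880 in WT cells with both cytokines, and 33665 and 27145 in the KO cells. With 1 library per condition and no read counts there is no error and no test, and the depth is unknown. A DHS lay within 1 kb of the annotated start of 6 members in the WT control list and 7 in the list with both cytokines, and of 6 in each KO list. Of the protein-coding genes whose mean RPKM reached 1, 89.2%, 87.9%, 87.6% and 85.3% had one in the same 4 lists.

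**Figure D4:**
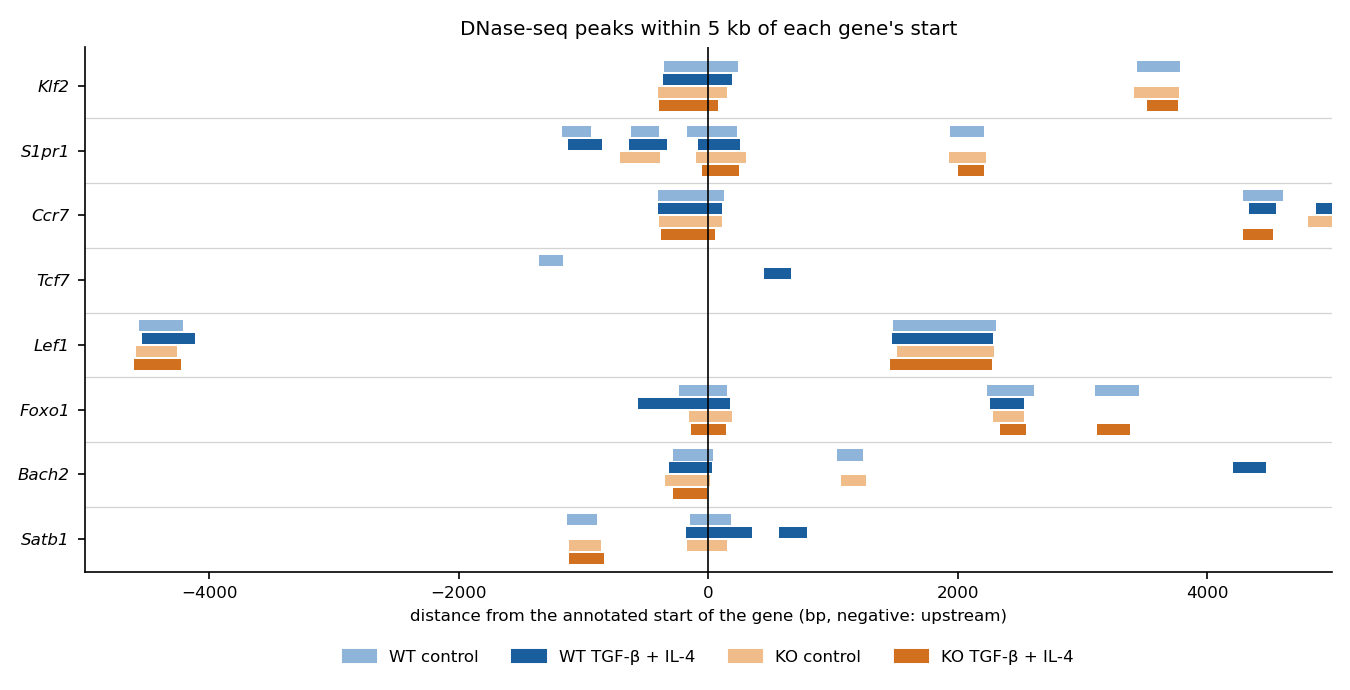
DHSs within 5 kb of the annotated start of each gene (x axis, distance in bp with upstream negative), as bars from first to last base, with 1 row for each of the 4 DNase-seq lists. *Klf2*, *S1pr1*, *Ccr7*, *Foxo1* and *Bach2* have a bar at or just upstream of the start in all 4 rows. *Lef1* has none there, but has one further upstream and one further downstream in all 4. The *Satb1* start lacks one in KO TGF-β + IL-4 cells.

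*Klf2* (ENSMUSG00000055148.7, mm9 chromosome 8, 74842932 to 74845555, plus strand) had a DHS over its start in every list. In fold enrichment over the local background it was 6.98 (WT control), 6.66 (WT, both cytokines), 5.17 (KO control) and 4.87 (KO, both cytokines), at 32.8%, 30.3%, 40.1% and 50.9% of its own list, where the strongest DHS is near 0%. The sequence printed above lies inside it in WT control cells, where it ran from 74842576 to 74843170. *Ccr7* (ENSMUSG00000037944.8, chromosome 11, 99005510 to 99016391, minus strand) had one too, with 7.95, 6.78, 5.42 and 5.19 at 24.2%, 29.1%, 36.2% and 43.3%. The start DHSs of *Foxo1* (ENSMUSG00000044167.5, chromosome 3, 52072259 to 52154031, plus strand) were weaker, with 3.69, 4.62, 3.86 and 3.66 at 90.3%, 63.8%, 72.5% and 85.6%. *Bach2* (ENSMUSG00000040270.9, chromosome 4, 32325779 to 32673083, plus strand) had 4.88, 5.12, 4.73 and 4.5 at 64.0%, 53.0%, 49.1% and 59.6%.

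*S1pr1* (ENSMUSG00000045092.6, chromosome 3, 115413351 to 115417973, minus strand) had a DHS over its start in every list, with 3.85-, 4.17-, 3.29- and 3.96-fold enrichment. Upstream of it both WT lists had 2 more that reached into the 1 kb window, the KO control list had 1 and the other KO list none. *Satb1* (ENSMUSG00000023927.7, chromosome 17, 51875512 to 51972615, minus strand) had a DHS over its start in WT control (3.38-fold), in WT with both cytokines (3.94-fold) and in KO control cells (3.28-fold). In KO cells with both cytokines, where its RPKM was high, the list gave only a DHS with its summit at -965 bp from the start (2.90-fold, 98.8%). *Tcf7* (ENSMUSG00000000782.8, chromosome 11, 52065873 to 52096681, minus strand) had a single DHS within 1 kb of its start, in the list of WT cells with both cytokines (2.73-fold, 99.5%), and another further upstream in WT control cells (2.90-fold, 99.0%). The strongest DHS at *Tcf7* lay at 52112981 to 52113687, centered at -16653 bp from the start, and was called in all 4 lists at 10.4-, 10.9-, 7.66- and 7.47-fold. *Lef1* (ENSMUSG00000027985.8, chromosome 3, 130813389 to 130927274, plus strand) had none within 1 kb of its start in any list. Between 20 kb before and 20 kb after the 8 genes there were 147 sites. The WT control list, the longest, held 120 of them and the WT TGF-β + IL-4 list 98. The KO control list held 86 and the KO TGF-β + IL-4 list 71. Of the 147 sites, 52 were called in all 4 lists, 14 in WT TGF-β + IL-4 cells alone and 4 in both WT lists alone. Others were called in WT control cells alone, and the shares over all DHSs were not computed. *Bach2*, the longest of the 8 genes, held 63 of the 147 sites.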

How the data were processed

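RNA-seq of 24 libraries and DNase-seq of 4 were used. The deposited RPKM and peak lists came from reads that the authors mapped to the mm9 genome by Bowtie2 and cleared of redundant and poorly mapped reads, with peaks called by MACS2 in single libraries. RPKM were normalized by the authors to gene length and library size. The deposited peak lists give a fold enrichment ratio, a −log10 p and a −log10 q for every peak. Tool versions are not given in the sources used here, and total reads are unknown. RPKM columns were read by position against their headings. The members and gene lists were chosen with earlier results of these data known.

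Differences were fitted with limma 3.58.1 in R 4.3.3 to log2(RPKM + 1), with a mean-variance trend. Each fit held the compared groups and the genes whose mean RPKM reached 1, and p was Benjamini-Hochberg adjusted over all genes tested. Calls needed adjusted p under 0.01 and fold over 1.5. RPKM are not counts, so no count test was run. The fit was tested on simulated data. From each other list at most 3 genes called higher and 3 called lower in WT cells with both cytokines were named, by size, and *Il7r* was added after its values were seen. For likeness, the 3 genes with the highest Pearson's r were named. Some genes that these rules name are not reported here. The labels do not say that equal replicate numbers mark 1 animal, and a replicate block was used as an alternative alone. Gene starts are from GENCODE vM1.

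Alternatives were the columns as headed, the 8 libraries with read counts, a pseudocount of 0.1, no filter, a minimum RPKM of 5, median-ratio and quantile scaling, all 24 libraries in 1 fit, no trend, adjusted p under 0.05, and leaving out each library. For peaks they were a 5 kb window, a −log10 q minimum of 5 and equal numbers of peaks per list. Python 3.11.15, numpy 2.4.6, pandas 2.3.3 and matplotlib 3.10.9 were used for the rest.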

Additional observations from a re-analysis of the deposited data

Results flagged for a closer look

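For 8 effects on members of the program the response to a culture differed between WT and KO cells by a test of the difference itself (limma, KO effect minus WT effect in log2(RPKM + 1)). For TGF-β these were *Klf2* (-1.61), *S1pr1* (-1.32), *Foxo1* (-0.85), *Ccr7* (0.75) and *Satb1* (1.20), beside 4.71% of all genes called. For TGF-β + IL-4 they were *Foxo1* (-1.02), *Bach2* (-0.80) and *Satb1* (1.81), beside 4.18%. For *Satb1* and *Ccr7* KO cells were lower than WT cells under control, by -0.77 (called) and -0.36 (not called). Under TGF-β they were higher by 0.43 and 0.39, both under the 1.5-fold limit and not called. With all 24 libraries in 1 fit the TGF-β calls of *Klf2* and *S1pr1* were lost. Those of *S1pr1* and *Foxo1* were also lost without some single libraries. In WT cells the effect of TGF-β differed with and without IL-4 for *Ccr7* (1.20) and *Tcf7* (0.89), beside 1.77% of all genes called. The KO columns rest on their order in the table alone.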

How the results depend on the processing

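The reading of the columns decided the results. With the columns as headed, 0 members were called in each of the 16 comparisons, in place of 5 with TGF-β, 2 with IL-4 and 3 with both cytokines in WT cells, and 6 differences reversed: *Ccr7* was 0.0823 with TGF-β, 0.0802 with IL-4, -0.39 in the interaction of the cytokines and -0.0362 in the genotype difference of the TGF-β effect, and *Tcf7* was -0.0437 for both cytokines against TGF-β and -0.33 in the interaction. The 8 libraries with read counts gave 1 member with IL-4 in WT cells. With no filter on low values the count was 3 with TGF-β and 1 with IL-4 in WT cells, 1 with both cytokines in KO cells, 0 between KO and WT control and 3 for the genotype difference of the TGF-β effect. The last count was 3 with all 24 libraries in 1 fit, where *Klf2* and *S1pr1* were lost, and 2 at a minimum RPKM of 5, where *Klf2*, *S1pr1* and *Foxo1* were not tested and no call of a tested member was lost.

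Leaving out 1 library at a time gave 2 to 6 members with TGF-β and 1 to 2 with IL-4 in WT cells, 1 to 2 with both cytokines in KO cells, 3 to 5 between KO and WT with both cytokines, and 3 to 5 for the genotype difference of each of the effects of TGF-β and of both cytokines. Of the 40 member calls, 40 were kept at a pseudocount of 0.1, 40 with median-ratio scaling, 38 with quantile scaling, 39 without the trend, 35 with all libraries in 1 fit and 31 without a filter. Same-numbered libraries deviated from their group means with r between -0.089 and 0.553 in WT and between -0.297 and 0.415 in KO cells. Of the 12 libraries of each genotype, 9 were closest to their own number rather than another. What equal numbers share was not tested, and the main fits did not pair libraries by number. With a replicate block all 32 calls that could be fitted were kept, while the count over all genes for both cytokines in KO cells went from 185 to 88. Counts over all genes moved by over 1.5 times elsewhere too, such as WT IL-4 from 125 to 73 without WT control replicate 1, the WT interaction from 173 to 284 at adjusted p under 0.05, and the genotype difference with both cytokines from 408 to 681 without KO TGF-β + IL-4 replicate 2. For peaks, 5 or 6 members had one within 1 kb of the start with the −log10 q minimum or with equal numbers of peaks. Within 5 kb of the start 7 or 8 members had one. Unknown depth limits any reading of a peak that a list lacks. The causes of these changes were not tested.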
